A study of Homo sapiens with 4 samples.

Results

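The genes described here are the Wnt ligands, their receptors, their secreted antagonists and the core genes that relay the signal. Members were defined by gene symbol, in a set chosen with earlier results of these data known. The set holds every WNT, FZD, DKK1 to DKK4 and SFRP gene of the deposited table, with WIF1, LRP5, LRP6, LGR4, LGR5, AXIN1, AXIN2, APC, CTNNB1, RNF43, ZNRF3, NKD1, TCF7, TCF7L1, TCF7L2 and LEF1. There were 53 of them among 28278 genes, and 40 had enough counts to be tested among 17271 tested genes. Gene expression was measured by RNA sequencing of total RNA from A549, a human lung adenocarcinoma cell line. One group, labelled Control, was the stable line infected with a lentiviral control construct (genotype label WT, 2 libraries). The other, labelled OE_CBX7, was the stable line infected with a CBX7 expression construct (2 libraries). Both lines grew in the same serum-containing medium. As each group is a single stable line, an effect of CBX7 and a difference between the lines themselves cannot be told apart.

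Wnt proteins are secreted lipid-modified ligands that bind Frizzled receptors. With the co-receptors LRP5 or LRP6 they stop the breakdown of beta-catenin, which then enters the nucleus and activates genes together with TCF/LEF factors. DKK proteins block LRP5 and LRP6, while SFRP proteins and WIF1 bind Wnt ligands outside the cell. In the lung, Wnt signalling is known for its part in branching during development and in the renewal of alveolar epithelium. CBX7 is a chromobox subunit of Polycomb repressive complex 1, which represses many developmental genes.

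Levels are given as CPM, each count scaled to a common library size after TMM normalisation, as mean ± SD over n = 2 libraries. Fold changes are the CBX7 line over the control line, and a gene was called when its edgeR quasi-likelihood test gave a Benjamini-Hochberg adjusted p under 0.05 over all tested genes. Library totals ran from 69877585 to 90765502 counts, at which a count of 3 corresponds to 0.0320 to 0.0440 CPM. CBX7 itself had 7.998 and 8.73 CPM in the control libraries and 19.0 and 17.2 CPM in the CBX7 libraries, a log2 change of 1.11 (SE 0.156, adjusted p = 0.000141). The keratins KRT8 and KRT18 were abundant in every library, whereas EPCAM and KRT19, also listed as epithelial markers, had at most 149 counts. Of 12 epithelial markers tested, AKR1B10, AKR1C1 and NKX2-1 were called higher, KRT7 and MUC1 lower, and 7 were not called. The summed level of 10 leukocyte markers was 166 and 171 CPM in the controls and 27.8 and 27.1 CPM in the CBX7 line. Nearly all of it was CD68, with CD3D, CD3E and MS4A1 at 0 everywhere and PTPRC at 0 to 9 counts. CD14, another of the 10, was called higher (2.14-fold, adjusted p = 0.0299), while CD68 and ITGAM were called lower. The 10 fibroblast markers summed to 15.9 and 17.7 CPM in the controls against 12.7 and 12.6 CPM, with FAP and ACTA2 called lower. The 7 endothelial markers summed to 1.65 and 1.03 CPM against 3.53 and 3.90 CPM, with CDH5 called higher (3.33-fold, adjusted p = 0.00868). The part of these markers in the results was not tested. Nothing in the labels says that libraries of a line came from separate cultures. The p-values therefore rest on the differences between libraries of a line, which could be technical only. In such bulk samples, fewer cells with a transcript and less of it in each cell cannot be told apart.

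Of the 40 tested members, 11 were called, 7 higher and 4 lower. That is 27.5% of them, beside 24.4% of all tested genes called in either direction, so the share of Wnt members that changed was close to the background. The 7 higher members are 17.5% beside 10.5% of all tested genes called higher, and the 4 lower members are 10% beside 13.9% called lower. Scaled by library totals alone, 55.0% of all calls were higher, against 43.0% with TMM, and 8 members were higher and 4 lower. The median log2 fold change of the tested members was 0.11, beside -0.00015 for all tested genes. The members that rose were the ligand WNT5A, the receptor FZD7, the co-receptors LRP5 and LRP6, the antagonist DKK1 and the transcription factors TCF7 and TCF7L1. Those that fell were the receptor FZD4, the antagonists DKK3 and SFRP1 and the transcription factor TCF7L2. Where a lack of overlap between the lines is given below, it adds no support to calls made from the same values. The calls of WNT5A, FZD4, DKK1, DKK3 and SFRP1 held under all 9 alternative settings. The other 6 lost theirs when at least 1 library was left out: only 3 members were called higher without control library 1, and 2 without CBX7 library 1.

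**Figure D1:**
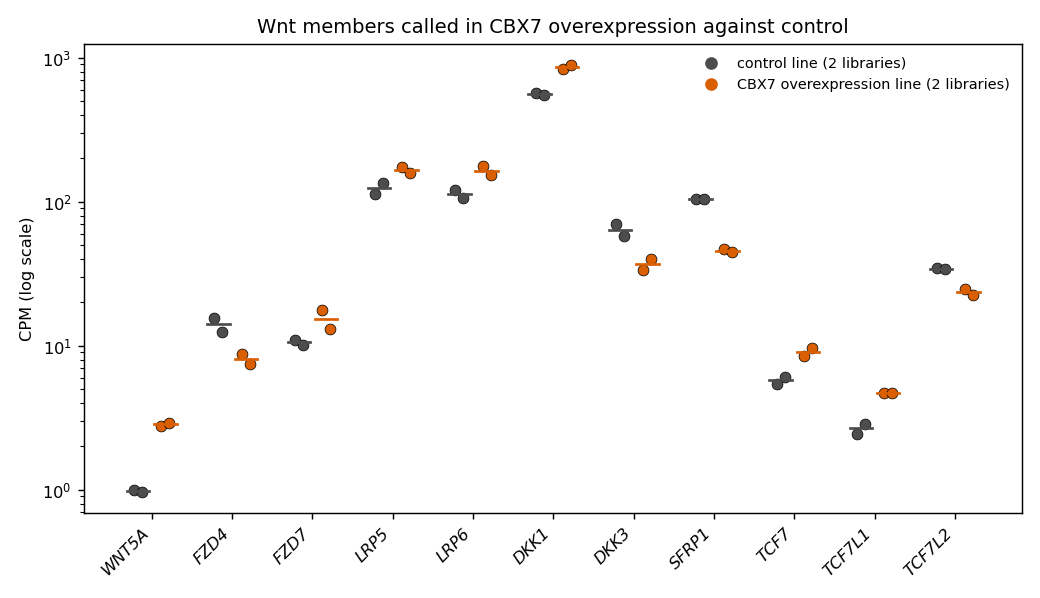
CPM of the 11 called Wnt members in each library, on a log axis. Points are single libraries (grey, control line; orange, CBX7 line) and short lines are group means (n = 2). In each of these members the control libraries do not overlap the CBX7 libraries, from WNT5A near 1 CPM in the controls to DKK1, the most abundant of the 11. These 11 were picked by their calls on the same values, so the lack of overlap adds no support. The share of all genes without overlap was not computed.

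Start regions were compared for the members found in a RefSeq promoter table (build GRCh38.p14), which matched 36 of the 53. The 250 bases before the first listed start are shown for a pair of members that rose, DKK1 and WNT5A, and a pair that fell, FZD4 and TCF7L2, because CG-rich starts are known sites of Polycomb binding. The first listed start of WNT5A lies inside its annotated span, not at its end, as do those of LRP5 and TCF7, compared below. Capitals mark CG pairs.
DKK1, chr10:52314031-52314280, plus strand: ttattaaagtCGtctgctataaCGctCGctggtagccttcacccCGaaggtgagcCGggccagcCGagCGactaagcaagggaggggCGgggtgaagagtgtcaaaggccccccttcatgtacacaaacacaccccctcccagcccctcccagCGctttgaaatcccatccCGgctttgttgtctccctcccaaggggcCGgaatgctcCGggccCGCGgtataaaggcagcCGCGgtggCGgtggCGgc
WNT5A, chr3:55487307-55487556, minus strand: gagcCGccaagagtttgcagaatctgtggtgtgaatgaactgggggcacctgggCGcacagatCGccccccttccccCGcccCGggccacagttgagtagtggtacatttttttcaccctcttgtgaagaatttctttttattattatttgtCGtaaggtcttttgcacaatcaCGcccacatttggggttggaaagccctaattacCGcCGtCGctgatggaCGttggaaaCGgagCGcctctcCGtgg
FZD4, chr11:86955396-86955645, minus strand: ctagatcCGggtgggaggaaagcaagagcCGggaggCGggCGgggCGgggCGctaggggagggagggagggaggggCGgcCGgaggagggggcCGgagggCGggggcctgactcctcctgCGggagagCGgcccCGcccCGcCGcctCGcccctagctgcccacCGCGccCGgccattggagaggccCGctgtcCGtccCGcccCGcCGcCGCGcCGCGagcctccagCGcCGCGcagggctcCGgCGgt
TCF7L2, chr10:112949997-112950246, plus strand: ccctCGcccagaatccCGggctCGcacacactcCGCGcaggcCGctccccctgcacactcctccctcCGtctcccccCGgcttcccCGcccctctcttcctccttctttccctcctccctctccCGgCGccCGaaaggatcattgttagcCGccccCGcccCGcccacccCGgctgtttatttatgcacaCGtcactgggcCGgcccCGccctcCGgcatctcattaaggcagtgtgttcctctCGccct
These windows hold 18, 14, 33 and 21 CG pairs in that order. The pair that rose thus had fewer than the pair that fell, but LRP5, TCF7L1 and TCF7, which also rose, had 43, 24 and 22 before their first listed starts. The median was 21 over the 44 windows of matched members and 19 over the windows of all tested genes. The called members FZD7, LRP6, DKK3 and SFRP1 had no window, so FZD4 and TCF7L2 were the only members that fell with a window. Whether CG pairs or Polycomb binding had a part in these changes was not tested. The letters CTTTGAT, the core of the TCF/LEF motif, were searched on both strands. They were in 0 of the 44 member windows, beside 1.51% of windows of tested genes. The looser CTTTGNT, which includes the first, was in 3 windows, beside 10.5%, and belonged to TCF7, DKK1 and a later start of TCF7L2. In DKK1 it began 76 bases before the start, on the plus strand. The TATA box letters TATAAA began 30 bases before the DKK1 start. They were in 4 member windows, of TCF7, FZD8, DKK1 and WNT5B, and in 6.78% of windows of tested genes.

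Among the 11 tested ligands, only WNT5A was called. That is 9.09% called higher, beside 10.5% of all tested genes. WNT5A (chromosome 3, 55465715 to 55505263, GRCh38), a ligand known mainly for signalling that does not use beta-catenin, was counted 85 and 66 times in the control libraries and 261 and 263 times in those of the CBX7 line. These counts are 0.987 and 0.967 CPM against 2.79 and 2.92 CPM. The libraries of a line lay close together and the lines did not overlap. The rise was 2.92-fold, a log2 change of 1.54 (SE 0.347, adjusted p = 0.00527), the largest called change in size among the members.

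The ligand level as a whole was set by WNT7B, a ligand of lung epithelium. WNT7B had 307 and 345 CPM in the controls and 339 and 347 CPM in the CBX7 line, and the groups overlapped. Its log2 fold change was 0.07 (95% interval -0.13 to 0.28, adjusted p = 0.651). Per kilobase of exon, it held 88.3% and 89.4% of all ligand signal in the controls and 88.6% and 87.9% in the CBX7 line. WNT3, a beta-catenin activating ligand, came next with 2.90 CPM per kilobase in the controls beside 64.6 for WNT7B. WNT3 levels were 9.79 and 9.69 CPM against 10.4 and 12.2 CPM, a log2 fold change of 0.21 (95% interval -0.16 to 0.58, adjusted p = 0.417). The rise of WNT5A thus took place at a low level, from 0.154 to 0.449 CPM per kilobase.

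No ligand was called lower by edgeR or by DESeq2, beside 13.9% of all tested genes called lower by edgeR. However, 2 had an unadjusted p under 0.05, both with few counts. WNT7A had control counts of 38 and 46 against 0 and 12 (adjusted p = 0.105). WNT5B had control counts of 31 and 30 against 0 and 9 (adjusted p = 0.131). In each, the control libraries lay above the CBX7 libraries, and each passed when CBX7 library 2 was left out (adjusted p of 0.00133 for WNT7A and 0.0101 for WNT5B). Because the counts are estimates, a 0 may also stand for a transcript that could not be estimated. The other tested ligands, WNT2B, WNT4, WNT8B, WNT9A, WNT10B and WNT11, had log2 fold changes of -0.48 to 0.62 with adjusted p of 0.375 to 0.939. WNT11, with 28, 0, 22 and 0 counts, shows how uneven such low counts were between libraries of a line. The 8 ligands that were not tested had at most 17 counts in any library, and WNT1 had 0 in all 4.

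Ligand genes that lie side by side had unlike levels. WNT10B and WNT1 are 6587 bases apart on chromosome 12, WNT3 and WNT9B 14497 bases apart on chromosome 17, and WNT9A and WNT3A 59066 bases apart on chromosome 1. In each of these pairs the first was tested, with 225 or more counts in every library, and the second was not, with at most 12. WNT6 and WNT10A, whose annotated spans overlap on chromosome 2, were both under the filter. WNT2B overlaps ST7L, which had control counts of 915 and 697 against 685 and 561. ST7L was itself called lower (log2 fold change -0.62, adjusted p = 0.0263). The strandedness of the libraries is not given in the sources used here, so reads of overlapping genes may be shared.

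Frizzled receptors, the membrane proteins that bind Wnt ligands, changed in both directions. Of 9 tested, 1 was higher and 1 lower (11.1% each), close to the 10.5% and 13.9% of all tested genes. FZD4 (chromosome 11, 86945679 to 86955395), known for its part in retinal vessel growth, had 15.6 and 12.5 CPM in the controls and 8.68 and 7.45 CPM in the CBX7 line. The lines did not overlap, and the fall was 1.74-fold, a log2 change of -0.80 (SE 0.178, adjusted p = 0.00499). The span of FZD4 overlaps that of PRSS23, which had 20108 to 25901 counts per library and was not called (adjusted p = 0.737).

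FZD7 (chromosome 2, 202033855 to 202038441), a receptor known from stem cells and epithelial tumours, had 10.97 and 10.2 CPM in the controls and 17.7 and 13.1 CPM in the CBX7 line. The CBX7 libraries were both above the controls but differed from each other more than the controls did. The rise was 1.46-fold, a log2 change of 0.54 (SE 0.174, adjusted p = 0.0357). The call ended when control library 1 (adjusted p = 0.0715), control library 2 (0.124) or CBX7 library 1 (0.466) was left out.

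The Frizzled genes with the highest levels were not called. FZD6 had 56.9 and 45.9 CPM against 58.2 and 56.5 CPM, a log2 fold change of 0.16 (95% interval -0.11 to 0.42, adjusted p = 0.401). FZD5 had 42.9 and 35.7 CPM against 41.0 and 39.8 CPM, a log2 fold change of 0.04 (95% interval -0.23 to 0.31, adjusted p = 0.869). In both genes the CBX7 libraries overlapped the range of the controls. Per kilobase of exon FZD6 and FZD2 led the family, with 13.1 and 10.5 CPM per kilobase in the controls and 14.6 and 13.7 in the CBX7 line. FZD2 missed the threshold (log2 fold change 0.39, adjusted p = 0.0587) and passed it under 4 of the 9 alternatives. FZD1, FZD3, FZD8 and FZD9 had log2 fold changes of 0.09 to 0.55 with adjusted p of 0.161 to 0.714. All 8 tested Frizzled genes other than FZD4 had a positive estimate, beside 8632 of all 17271 tested genes, though only FZD7 passed the test. The estimates of FZD3 and FZD5 turned negative in a fit with 1 library left out (lowest -0.024 and -0.083). FZD10 was not tested, with at most 9 counts in a library.

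The co-receptors of the canonical pathway both rose. In their class of 4, which includes LGR4 and LGR5, 2 were higher (50%) and none lower, beside 10.5% and 13.9% of all tested genes. LRP6 (chromosome 12, 12116025 to 12267044) had 121 and 106 CPM in the controls and 176 and 153 CPM in the CBX7 line, without overlap. This was a 1.45-fold rise, a log2 change of 0.54 (SE 0.111, adjusted p = 0.00315), and it was just short of a call without CBX7 library 1 (adjusted p = 0.0533). LRP5 (chromosome 11, 68298412 to 68449275) had 113 and 135 CPM in the controls and 175 and 159 CPM in the CBX7 line, again without overlap. The rise was 1.35-fold, a log2 change of 0.43 (SE 0.111, adjusted p = 0.0115), and its call ended when control library 1 (adjusted p = 0.0753) or CBX7 library 1 (0.116) was left out.

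LGR4 and LGR5, receptors for R-spondins, which raise Wnt sensitivity by keeping Frizzled receptors on the membrane, were not called. LGR4 had 305 and 256 CPM in the controls and 296 and 274 CPM in the CBX7 line, a log2 fold change of 0.02 (95% interval -0.20 to 0.25, adjusted p = 0.904). The CBX7 libraries lay within the range of the controls. As LRP5 and LRP6 rose, the share of LGR4 in the signal of these 4 receptors per kilobase went from 63.0% and 57.1% to 52.3% and 53.1%. The two-sided exact permutation test gave p = 0.333, the smallest p it allows with 2 libraries against 2, so it cannot decide whether the share changed. LGR5, a stem cell marker of the intestine, had control counts of 41 and 13 against 0 and 5 in the CBX7 line (adjusted p = 0.0930, unadjusted p = 0.0286). It was called lower without CBX7 library 2 (adjusted p = 0.0200). With it counted, no co-receptor or LGR gene was called lower by edgeR or DESeq2, and 1 had an unadjusted p under 0.05.

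**Figure D2:**
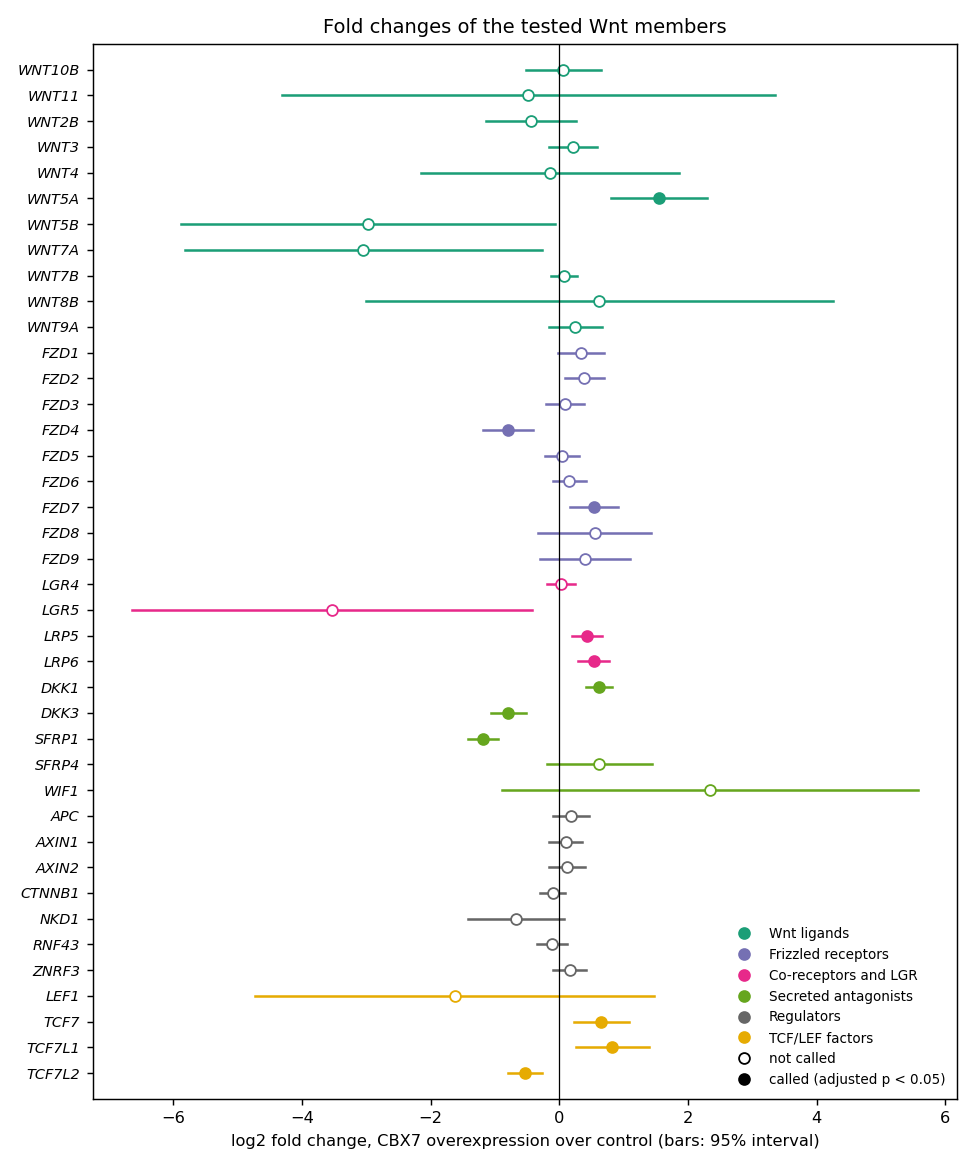
Log2 fold changes (CBX7 line over control line) of the 40 tested Wnt members, by class. Bars are 95% intervals from the edgeR fit with no adjustment for the number of genes, and filled points were called. Called members of a class lie on both sides of 0 for Frizzled receptors, antagonists and TCF/LEF factors, and the widest intervals belong to members with few counts such as WNT11 and LGR5.

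The secreted antagonists held the called changes with the smallest p-values among the members, and they moved in opposite directions. SFRP1 (chromosome 8, 41261962 to 41309473), which binds Wnt ligands outside the cell, was counted 8962 and 7118 times in the control libraries and 4373 and 4022 times in those of the CBX7 line. In CPM this was 104 ± 0.201 against 45.6 ± 1.496 (n = 2), with a wide gap between the lines. SFRP1 fell 2.28-fold, a log2 change of -1.19 (SE 0.107, adjusted p = 1.98e-06).

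DKK1 (chromosome 10, 52314281 to 52317657), which takes LRP5 and LRP6 out of the receptor complex, had 570.5 and 552 CPM in the controls and 831 and 886 CPM in the CBX7 line. The lines did not overlap. DKK1 rose 1.53-fold, a log2 change of 0.61 (SE 0.0940, adjusted p = 0.000308). It had the highest level of all members per kilobase of exon, with 314 CPM per kilobase in the controls and 480 (479.7) in the CBX7 line.

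DKK3 (chromosome 11, 11963036 to 12009745), a divergent member of the DKK family that does not bind LRP5 or LRP6 in the way DKK1 does, had 69.5 and 58.2 CPM in the controls. It had 33.7 and 40.1 CPM in the CBX7 line, below both controls. The fall was 1.73-fold, a log2 change of -0.79 (SE 0.129, adjusted p = 0.000498).

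With these opposite changes, the make-up of the antagonists differed between the libraries of the lines. Per kilobase of exon, DKK1 held 87.5% and 88.1% of the antagonist signal in the controls and 95.5% and 95.4% in the CBX7 line. The share of SFRP1 went from 5.999% and 6.26% to 2.02% and 1.80%, and that of DKK3 from 6.32% and 5.50% to 2.29% and 2.56%. In none of these shares did the lines overlap. With 2 libraries against 2, the two-sided exact permutation test gave p = 0.333 for each, the smallest p it allows (0.458 after adjustment over the 11 shares compared). It therefore cannot decide whether these shares changed. Of 5 tested antagonists, 1 was higher (20%) and 2 lower (40%), beside 10.5% and 13.9% of all tested genes. The class median was 0.61, the value of DKK1, so the median and the counts differ in sign.

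The remaining antagonists were low. SFRP4 had 2.05 and 1.36 CPM in the controls and 1.85 and 3.43 CPM in the CBX7 line, which overlap (log2 fold change 0.62, adjusted p = 0.271). WIF1 had 0 and 6 counts against 13 and 27 (adjusted p = 0.296). DKK2, DKK4, SFRP2 and SFRP5 were not tested. SFRP5 had 0 counts in both controls and 11 and 9 in the CBX7 line, and DKK4 had 0 and 0 against 3 and 6.

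**Figure D3:**
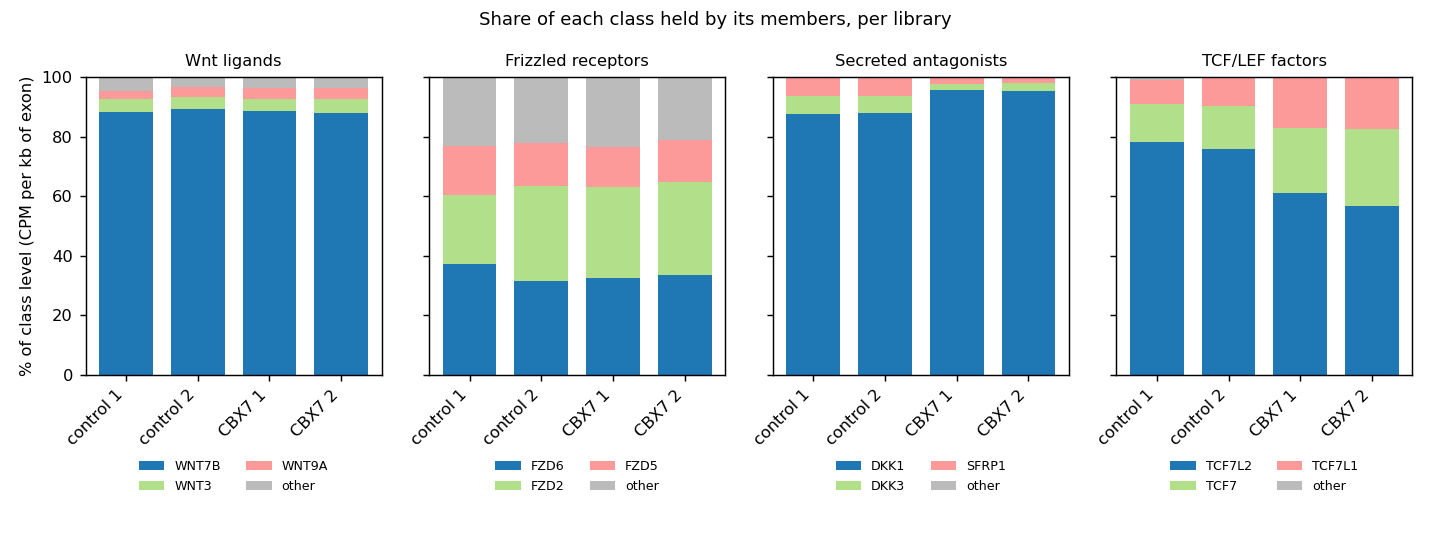
Shares within the ligand, Frizzled, antagonist and TCF/LEF classes, per library, from CPM per kilobase of exon. Bars show the 3 most abundant members of each of these classes and the others together. WNT7B makes up between 87.9% and 89.4% of the ligand signal in every library, whereas the share of DKK1 among antagonists is larger and that of TCF7L2 among TCF/LEF factors smaller in both CBX7 libraries than in both controls.

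Genes that control beta-catenin in the cytoplasm and at the membrane were not called in either direction. None of the 7 regulators passed the edgeR test or DESeq2, and none had an unadjusted p under 0.05. Of all tested genes, 24.4% were called in either direction, and a class of 7 is too small to set apart from that share. CTNNB1, which encodes beta-catenin, had 264 and 257 CPM in the controls and 248 and 237 CPM in the CBX7 line. The CBX7 libraries were lower, but the log2 fold change was -0.10 (95% interval -0.30 to 0.09, adjusted p = 0.462). RNF43, a ubiquitin ligase that removes Frizzled receptors, had 76.3 and 67.3 CPM against 65.3 and 67.4 CPM, which overlap. Its log2 fold change was -0.11 (95% interval -0.35 to 0.12, adjusted p = 0.514).

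The other regulators were chosen for naming after their values were seen. AXIN2, a feedback inhibitor and classic target of beta-catenin, had 22.6 and 20.8 CPM in the controls and 23.5 CPM in each CBX7 library. Its log2 fold change of 0.12 had a 95% interval of -0.16 to 0.40 (adjusted p = 0.567). The scaffolds AXIN1 and APC had log2 fold changes of 0.10 and 0.19, with intervals of -0.15 to 0.35 and -0.09 to 0.46. ZNRF3, the partner ligase of RNF43, had 0.17 (-0.09 to 0.42). NKD1, an inhibitor of Dishevelled and a target of the pathway, had 2.34 and 2.70 CPM against 1.87 and 1.30 CPM. The NKD1 libraries did not overlap, but its log2 fold change of -0.67 had a wide interval (-1.42 to 0.08, adjusted p = 0.188). Apart from NKD1, every interval in this class lay within a log2 fold change of 0.465 of 0.

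TCF/LEF factors, which bring beta-catenin to DNA, shifted against each other. Of 4 tested, 2 were higher (50%) and 1 lower (25%), beside 10.5% and 13.9% of all tested genes. TCF7L2 (chromosome 10, 112950247 to 113167678), the main factor of the family in many epithelia, had 34.4 and 33.9 CPM in the controls and 24.6 and 22.6 CPM in the CBX7 line. It fell 1.45-fold, a log2 change of -0.53 (SE 0.121, adjusted p = 0.00553), and was not called without CBX7 library 2 (adjusted p = 0.0665).

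TCF7 (chromosome 5, 134108218 to 134148210), known from T cells, had 5.44 and 6.07 CPM in the controls and 8.42 and 9.70 CPM in the CBX7 line. Its libraries did not overlap and the rise was 1.57-fold, a log2 change of 0.65 (SE 0.198, adjusted p = 0.0278). Its call ended when control library 1 (adjusted p = 0.0996), CBX7 library 1 (0.0604) or CBX7 library 2 (0.214) was left out. The span of TCF7 overlaps that of VDAC1, a mitochondrial channel with 27923 to 38669 counts per library that was not called (adjusted p = 0.978).

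TCF7L1 (chromosome 2, 85133392 to 85310387), a family member that acts mostly as a repressor, had 2.45 and 2.87 CPM in the controls and 4.72 and 4.69 CPM in the CBX7 line. The rise was 1.77-fold, a log2 change of 0.82 (SE 0.263, adjusted p = 0.0355), and it was not called when any single library was left out (adjusted p of 0.0524 to 0.135). LEF1 was near the floor, with 30 and 9 counts against 0 and 14 (adjusted p = 0.469), and it was called lower without CBX7 library 2 (adjusted p = 0.04995).

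The make-up of the TCF/LEF class differed accordingly between the libraries of the lines. Per kilobase of exon, TCF7L2 held 78.1% and 76.0% of the signal in the controls and 60.98% and 56.8% in the CBX7 line. TCF7 went from 13.0% and 14.3% to 21.9% and 25.6%, and TCF7L1 from 8.11% and 9.40% to 17.1% and 17.2%. The lines overlapped in none of these shares, and the two-sided exact permutation test again gave the smallest p it allows, 0.333 (0.458 adjusted). Here too it cannot decide whether the shares changed. TCF7L2 remained the member with the highest level in the class in all 4 libraries.

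Other genes of the pathway were taken from lists written from general knowledge, with earlier results of these data known. Their shares beside the background are therefore descriptive only. In the list for secretion and extracellular control, 4 of 15 tested genes were lower (26.7%, beside 13.9% of all tested genes). None was higher by edgeR with the settings used throughout or by DESeq2, and 2 of those with a positive change had an unadjusted p under 0.05. With library totals, with no low-count filter or without control library 2, edgeR called 1 higher. RSPO3, an R-spondin and so a ligand of LGR4, had 52.0 and 48.6 CPM in the controls and 30.6 CPM in both CBX7 libraries (log2 fold change -0.72, adjusted p = 0.000427). WLS, the carrier that takes Wnt proteins to the cell surface, had 22.8 and 26.2 CPM against 15.3 and 13.7 CPM (log2 fold change -0.76, adjusted p = 0.00158). For both genes the CBX7 libraries were well below the controls. TRABD2B, a protease that inactivates Wnt proteins, had 122 and 31 counts against 20 and 10 (adjusted p = 0.0326), and FRZB, a relative of the SFRP genes, had 24 and 27 counts against 3 and 0 (adjusted p = 0.0491). Leaving out control library 1 or CBX7 library 2 ended the call of TRABD2B (adjusted p of 0.432 and 0.0865). FRZB was not called under 7 of the 9 alternatives.

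Among alternative receptors and planar polarity genes, which act without beta-catenin, 3 of 18 tested were higher (16.7%, beside 10.5% of all tested genes) and 3 lower (16.7%, beside 13.9%). The polarity cadherins CELSR2 and CELSR1 rose, CELSR2 from 26.8 and 31.1 CPM to 60.7 and 53.1 CPM (log2 fold change 0.98, adjusted p = 6.54e-05). CELSR1 went from 102 and 103 CPM to 169 and 158 CPM (log2 fold change 0.67, adjusted p = 0.000225). FUZ, a polarity effector of ciliated cells, rose 1.95-fold from 5.27 ± 1.04 CPM (adjusted p = 0.00365). PRICKLE2, a polarity protein, fell 1.45-fold (adjusted p = 0.00822), but not without control library 1 (0.0580). DAAM1, a formin, and ROR1, a receptor for WNT5A, were also called lower, with log2 fold changes of -0.56 and -0.40. Of the 4 fits with a library left out, 3 did not call DAAM1 (adjusted p of 0.0534 to 0.218) and 3 did not call ROR1 (0.0959 to 0.316). ROR1 was also not called with RLE scaling (adjusted p = 0.0509) or library totals (0.0950).

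In the cytoplasmic relay 2 of 26 tested genes were higher (7.69%) and 4 lower (15.4%), close to the background of 10.5% and 13.9%. AMER1, a scaffold of the complex that degrades beta-catenin, had 27.0 and 27.4 CPM in the controls and 12.1 and 13.2 CPM in the CBX7 line (log2 fold change -1.11, adjusted p = 4.34e-05). TNKS2, a tankyrase that marks AXIN proteins for degradation, fell 1.55-fold from 129 ± 14.6 CPM (adjusted p = 0.00099). CSNK1G1, a casein kinase, fell 1.71-fold from 73.3 ± 8.39 CPM (adjusted p = 0.000257). CXXC5, which binds Dishevelled, rose 2.01-fold from 9.68 ± 2.02 CPM (adjusted p = 0.000629). CSNK1A1 and USP34 were the other called genes, with log2 fold changes of -0.31 and 0.30, and each lost its call when some libraries were left out.

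Nuclear cofactors were called in 12 of 22 cases, 5 higher (22.7%, beside 10.5% of all tested genes) and 7 lower (31.8%, beside 13.9%). TLE4, a Groucho corepressor that occupies TCF factors in the absence of beta-catenin, had 66.3 and 60.4 CPM in the controls and 30.1 and 30.8 CPM in the CBX7 line (log2 fold change -1.06, adjusted p = 1.18e-05). SMARCA4, a chromatin remodelling ATPase, fell 1.59-fold from 21.1 ± 0.386 CPM (adjusted p = 0.00323). HIPK2, a kinase, fell 1.44-fold (adjusted p = 0.00371), but not without CBX7 library 2 (0.0681). TBL1X, a partner of beta-catenin at promoters, rose 1.45-fold from 46.9 ± 6.53 CPM (adjusted p = 0.00489). The count of lower cofactors was between 2 and 6, and that of higher ones between 1 and 5, with 1 library left out.

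Of 31 tested genes reported as Wnt targets in other cells, 14 were lower (45.2%, beside 13.9% of all tested genes) and 3 higher (9.68%, beside 10.5%). The other 14 were not called, SP5 among them (adjusted p = 0.276). AXIN2, a target counted among the regulators and not in this list, was not called (log2 fold change 0.12, adjusted p = 0.567). The list median was -0.39. Between 11 and 13 were lower with any 1 library left out. FOSL1, an AP-1 subunit, fell from 114 and 119 CPM to 18.7 and 16.96 CPM (log2 fold change -2.71, adjusted p = 4.91e-10). PLAUR, the urokinase receptor, fell 2.93-fold, CLDN1, a tight junction protein, 2.25-fold and the T-box factor TBX3 2.78-fold, with adjusted p of 1.57e-07, 1.61e-06 and 3.35e-06. MYC, a growth regulator named here after its values were seen, fell from 206 and 197 CPM to 129 and 130.4 CPM (log2 fold change -0.63, adjusted p = 0.000257). The 3 that rose were BAMBI, EPHB3 and BMP4, with log2 fold changes of 0.98, 1.24 and 0.33. Of these, BMP4 was not called when any 1 library was left out (adjusted p of 0.0607 to 0.235), and EPHB3 was not called without CBX7 library 2 (0.0607).

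**Figure D4:**
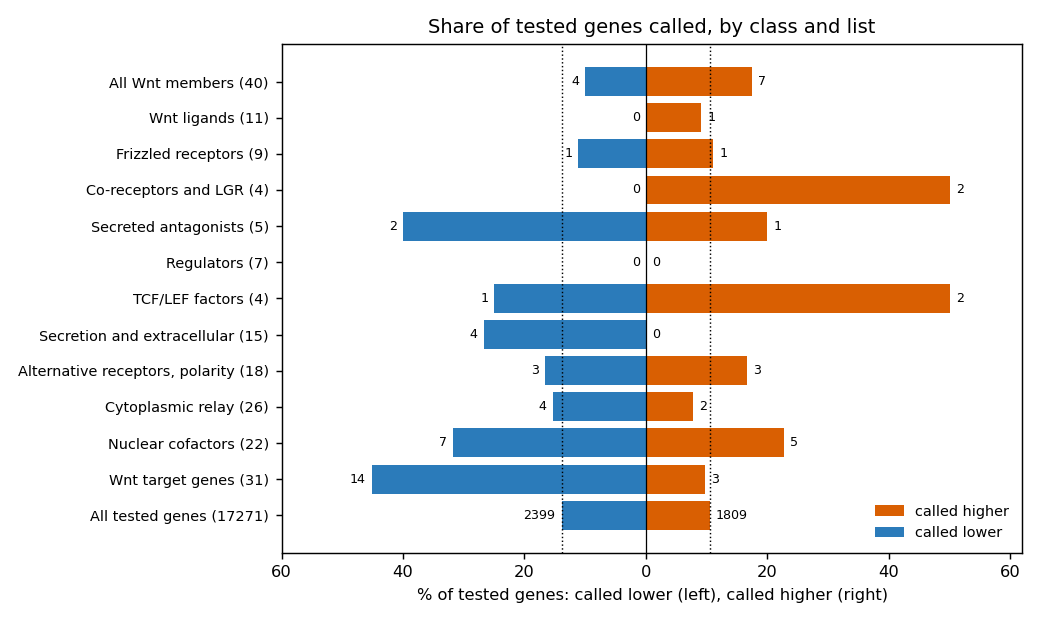
Percent of tested genes called higher (orange, right) and lower (blue, left) in each class of Wnt members and in 5 lists of other pathway genes, with the number tested in parentheses, the number called beside each bar, and dotted lines at the shares of all tested genes (10.5% higher, 13.9% lower). The 40 Wnt members together lie near the dotted lines, and the bar for lower target genes (14 of 31) reaches farthest to the left.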

How the data were processed

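The authors deposited 1 table of estimated counts, whole numbers per gene symbol and library. HISAT2 2.2.1, StringTie 2.2.1, DESeq2 and the build hg38 are named, with no role given, per the submitters' processing notes. For annotation and strandedness, nothing is given in the sources used. All values were whole, so rounding changed none, and every column matched a sample title.

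Genes were kept with filterByExpr (17271 of 28278) and tested with edgeR 4.0.16 in R 4.3.3 (TMM, robust quasi-likelihood, group as the only term, all 4 libraries, two-sided). SEs and 95% intervals come from the fold change, its F statistic and the fit's degrees of freedom. The test was checked on simulated data. Levels per kilobase use merged exons of the GENCODE 29 basic set, which may differ from the authors' annotation. Intervals and count floors cover counting error or the spread of these libraries only. Positions are from RefSeq genes of GRCh38.p14.

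Values are given for every called member, and in each class for up to 2 uncalled members with the highest CPM and in each list for up to 4 called genes with the smallest p. Other genes were named after their values were seen. The members and lists were chosen with earlier results of these data known. Alternatives were RLE scaling, library totals, no low-count filter, DESeq2 1.42.0, a replicate block and leaving out each library.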

Additional observations from a re-analysis of the deposited data

How the results depend on the processing

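No called member changed direction under any of the 9 alternatives, and 5 of 11 kept their call under all of them. RLE scaling and DESeq2 gave the same counts of called members as reported, 7 higher and 4 lower. With library totals, no low-count filter or the replicate block, 2 Frizzled genes were higher, since FZD2 passed. Library totals shifted the median log2 fold change over all genes by 0.066 and made 55.0% of all calls higher, against 43.0% with TMM. Of the member calls, 66.7% and 63.6% were higher.

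With 1 library left out, where the lone library of a line is assumed to vary as the other line does, 1021 to 1819 genes were higher in all, 2 to 6 members higher and 4 to 7 lower. By class, 0 to 2 ligands and 0 to 1 co-receptors were lower, and 0 to 2 co-receptors, 0 to 1 Frizzled genes and 0 to 1 TCF/LEF factors higher. Of the uncalled members, 8 turned sign over these fits: WNT10B (-0.17 to 0.34), WNT11 (-6.77 to 6.33), WNT4 (-0.55 to 0.45), WNT7B (-0.0098 to 0.16), WNT8B (-0.96 to 6.17), FZD3 (-0.024 to 0.20), FZD5 (-0.083 to 0.18) and LGR4 (-0.092 to 0.16). The cause was not tested. At these depths, 13 members did not pass the count filter and were not tested, and these had at most 17 counts in any library.

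Deviations of same-numbered libraries from their group means correlated at 0.108 across genes, with 2 pairs too few to show pairing. With the replicate block, 2100 genes were higher and 2503 lower, against 1809 and 2399, and 8 members were higher and 4 lower.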
